A study of Zea mays with 36 samples.

Results

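Root tissue of maize taken after 24 h without nitrate was compared with root tissue taken at 0 h, when nitrate was still supplied. The comparison covered 6 of the 36 RNA-seq libraries of the study, with 3 replicates at 0 h and 3 at 24 h. The members were the genes at or above 1 TPM in at least 3 of these 6 libraries, which gave 24367 of the 43459 genes in the root table. TPM is a transcript level per gene that is corrected for transcript length and scaled to a total of 1000000 in each library.

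All plants were the inbred line B73, with no transgene or mutation in any group, and grew in hydroponic tanks under 16 h of light and 8 h of dark per day. The 0 h group, labelled normal nitrogen (NN), had been on nitrate-sufficient solution for 12 days per the labels, which differ from the study's methods on plant age. The 24 h group, labelled nitrogen deprivation (ND), had the same history and was then moved to a solution whose nitrate salts were replaced by other salts. The study's methods name chloride salts of calcium and manganese, and the labels differ from the methods on the nutrient solution. Each replicate was pooled tissue from several plants, for which the labels and the study's methods state different pool sizes. There was no group kept on nitrate for the same 24 h. Every difference below thus includes any change with plant age, with the replacement salts and with the move to fresh solution. Nothing in the sources used here gives the clock time of harvest. Each library holds root tissue as a whole, so fewer cells of a type and less RNA per cell cannot be told apart.

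Plant roots take up nitrate through low-affinity transporters of the NPF family and high-affinity transporters of the NRT2 family, and most NRT2 proteins need the partner protein NAR2 to reach the membrane. Inside the cell, nitrate reductase makes nitrite and plastid nitrite reductase makes ammonium. Glutamine synthetase and glutamate synthase (GOGAT) then place the ammonium into amino acids. Nitrate itself is a signal: it induces the genes of the assimilation chain through NLP transcription factors, while lack of nitrogen raises the high-affinity uptake genes.

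The root form of ferredoxin NADP reductase, RFNR, was at 177 to 558 TPM in the 6 libraries, against a leaf mean of 26.4 TPM. Of 118 genes selective for root over leaf, 0 were at 0 TPM in any of these libraries. Genes selective for leaf were at a median of 0.239% to 0.404% of their leaf level. Both sets were chosen by their levels in the root and leaf libraries, these 6 included. Their values follow in part from that choice and are no test of the tissue. The summed level of 14 photosynthesis genes was 28.7 to 40.1 TPM at 0 h and 13.3 to 20.7 TPM at 24 h, so these groups did not overlap, and the part of this in the results below was not tested. Correlations of log2(TPM + 1) over the members were 0.972 to 0.978 within 0 h, 0.97 to 0.988 within 24 h and 0.93 to 0.959 between the groups. Replicate 2 of 24 h stood somewhat apart, with a mean correlation of 0.973 with its group, while replicates 1 and 3 had 0.988 with each other.

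More genes were lower than higher after 24 h without nitrate. Of the 24367 members, 302 were called higher and 667 lower, which is 1.24% and 2.74% of those tested and 3.98% in all. A gene was called at a limma adjusted p-value under 0.05 with an absolute log2 fold change (log2FC) above 1. The adjusted p-value alone was met by 5176 members, or 21.2%. The median log2FC was 1.27 over the genes called higher and -1.28 over those called lower. A log2FC past 2 was found for 27 of the genes called higher and 79 of those called lower. The median over all members was -0.084. The lower share of the calls, 68.8%, depended on the scaling and was 58.2% with median-of-ratios size factors and 56% after quantile normalization.

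Most of the members had detectable levels in both groups. At 0 h, 103 members were under 1 TPM in all 3 libraries, and 28 of these were called. At 24 h, 176 members were under 1 TPM in all 3 libraries, and 53 of these were called. Of the 969 called genes, 583 reached a mean of 10 TPM in the higher group and 101 reached 100 TPM, with 37 of the latter higher and 64 lower at 24 h. The 3 libraries of one group lay wholly above or below those of the other for 956 of the called genes and for 42.6% of all members. Without 24 h replicate 2, the genes called higher fell in number from 302 to 181. Without 0 h replicate 2 they numbered 193.

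**Figure D1:**
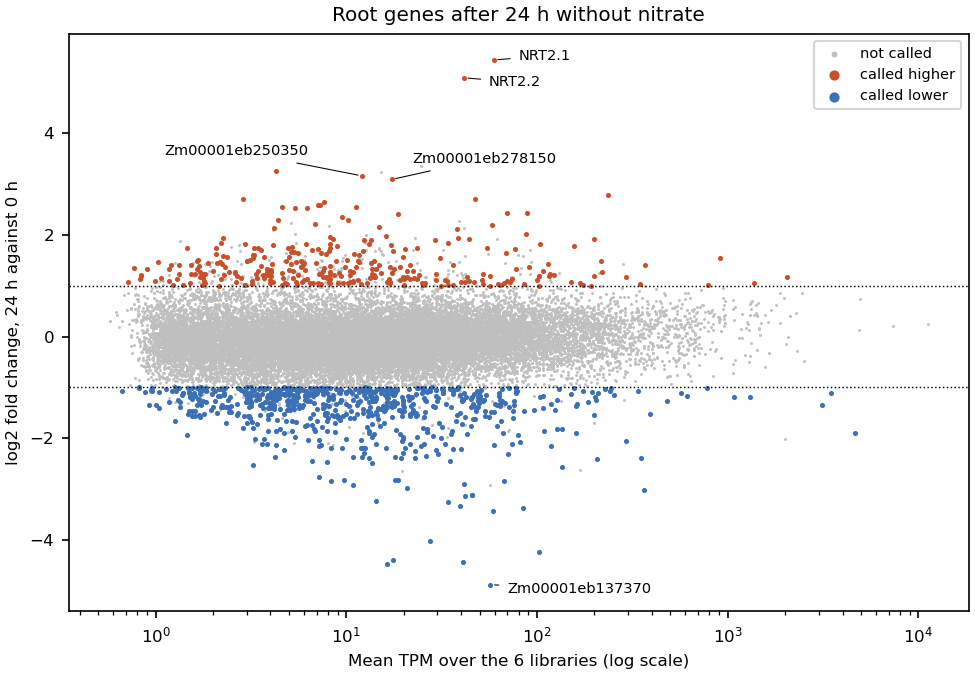
Log2FC of each of the 24367 members (24 h without nitrate against 0 h, on the log2(TPM + 1) scale) against its mean TPM over the 6 libraries, on a log axis. Dotted lines mark the fold limit, and coloured points are the 302 genes called higher and the 667 called lower. NRT2.1 and NRT2.2 stand above all other called genes.

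The high-affinity nitrate transporter genes rose most. NRT2.1 (Zm00001eb209670) was at 0.733, 1.16 and 1.77 TPM in the 0 h libraries and at 76.3, 228 and 47.3 TPM in the 24 h libraries. Its copy NRT2.2 (Zm00001eb209690) was at 0.504, 0.695 and 0.756 TPM at 0 h and at 40.9, 184 and 21.9 TPM at 24 h. Both were near the filter limit in each 0 h library and far above it in each 24 h library, with replicate 2 the highest and replicate 3 the lowest. The log2FC values were 5.44 (SE 1.28, limma adjusted p-value 0.00851) for NRT2.1 and 5.09 (SE 1.15, limma adjusted p-value 0.00675) for NRT2.2. Without 24 h replicate 2 they were 4.81 (adjusted p-value 0.0434) and 4.23 (adjusted p-value 0.0386).

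On the B73 version 5 assembly NRT2.1 lies on chromosome 4 from 248934294 to 248936048 and NRT2.2 from 248945115 to 248946969, 9066 bases apart. The files describe both by the same protein, so reads may have been shared between them and the split of the signal is uncertain. A further high-affinity gene, NRT2.5, was at 0.033, 0.0588 and 0.0244 TPM at 0 h and at 2.87, 2.51 and 0.78 TPM at 24 h. It reached 1 TPM in too few libraries to be a member, and its value in the fit over all root libraries (log2FC 1.48, limma adjusted p-value 0.0117) no longer passed without 24 h replicate 1 or 2.

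NAR2.1, the gene for the partner protein of NRT2, was at 6.89, 10.4 and 9.52 TPM at 0 h and at 18.5, 42.4 and 15.1 TPM at 24 h. Its groups did not overlap, but the log2FC of 1.28 (SE 0.443) missed the limit with a limma adjusted p-value of 0.0525. Replicate 2 was again the highest library, and without it the log2FC was 0.85 (adjusted p-value 0.233).

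The low-affinity nitrate transporter gene NRT1.1, whose Arabidopsis counterpart is both transporter and nitrate sensor, was at 68.1, 101 and 87 TPM at 0 h and at 48.4, 51.7 and 47.6 TPM at 24 h. All 24 h libraries were lower and close to each other. The log2FC of -0.77 (SE 0.19, limma adjusted p-value 0.0112) passed on the p-value and not on the fold. NPF4.7 was at 16.8, 17.8 and 16.2 TPM at 0 h and at 8.56, 8.17 and 7.19 TPM at 24 h, a called fall that only just passed the fold limit (log2FC -1.0, SE 0.11, limma adjusted p-value 0.000104). The NPF4.7 call was lost under both other scalings, without 0 h replicate 2 and without 24 h replicate 3. NPF4.9 lay the other way, at 3.79, 2.91 and 2.37 TPM and then 6.47, 4.63 and 7.96 TPM (log2FC 0.86, SE 0.228, limma adjusted p-value 0.0158), and was not called. Neither NPF2.3 (log2FC 0.01, limma adjusted p-value 0.984) nor NPF3.6 (log2FC -0.38, adjusted p-value 0.248) passed.

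Ammonium transporter genes did not move together. AMT1.3 was at 33.3, 35.6 and 34.2 TPM at 0 h and at 8.45, 18.4 and 9.36 TPM at 24 h. The 0 h libraries were nearly equal, and the 24 h libraries were all lower, with replicate 2 the highest of them. The log2FC was -1.51 (SE 0.278, limma adjusted p-value 0.00199), and it was -1.84 without that replicate. AMT2.3, AMT2.4, AMF1-1 and AMF1-2 overlapped between the groups, with log2FC values from 0.07 to 0.44, and none passed the test.

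Of the 15 genes in the N transporter list of the regulatory network of the study, 13 were members. Of these, 2 were called higher, against 1.24% of all members, and 2 lower, against 2.74%. Their median log2FC was 0.09, against -0.084 over all members. NRT1.3, at 0.374 to 1.25 TPM at 0 h and 0.356 to 0.427 TPM at 24 h, was not a member.

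**Figure D2:**
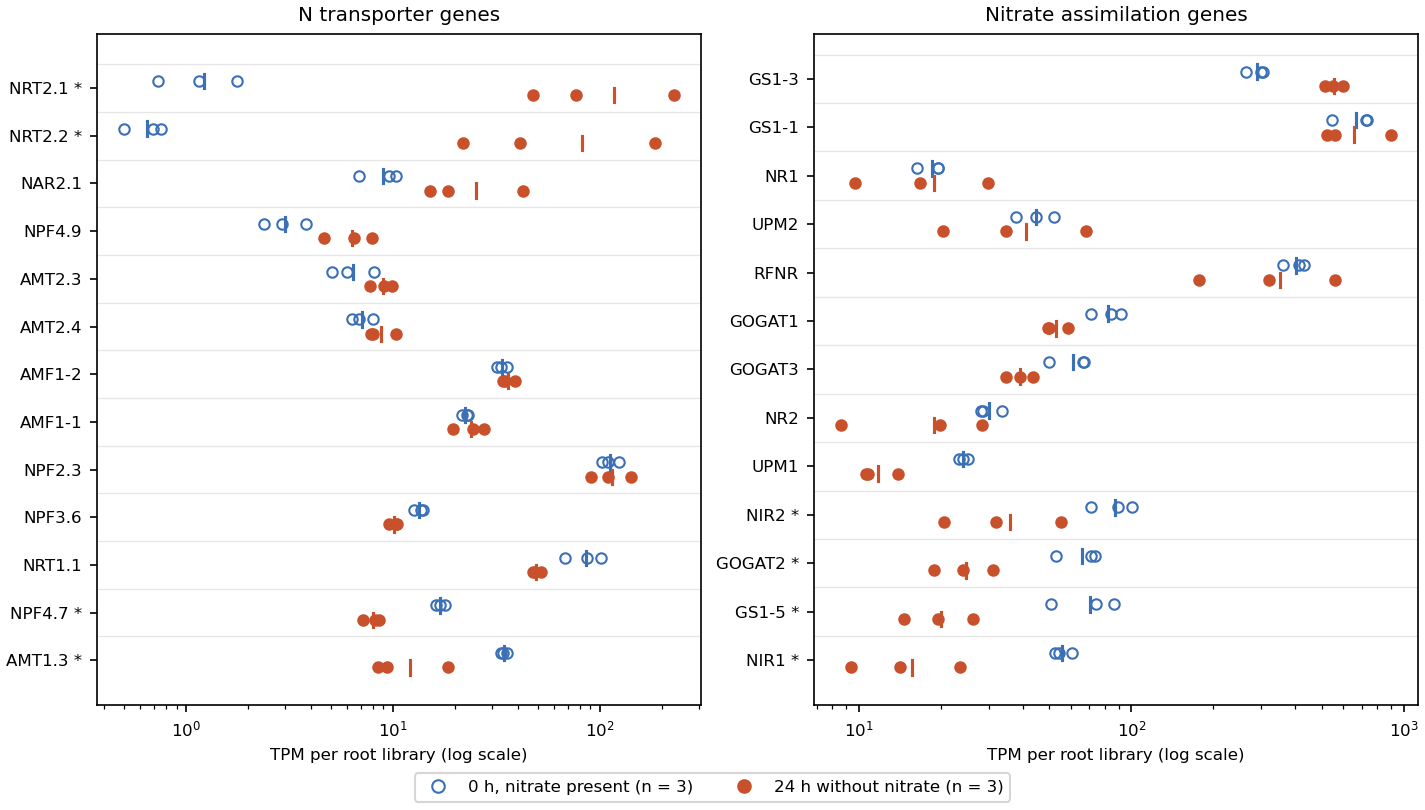
TPM in each root library (log axis) for the 13 N transporter members and the 13 nitrate assimilation members, ordered by log2FC, with open points for 0 h, filled points for 24 h and short bars for the group means. Called genes carry a star. NRT2.1 and NRT2.2 are far to the right at 24 h, and NIR1, GS1-5, GOGAT2 and NIR2 are to the left.

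Transcripts of both nitrite reductase genes were lower at 24 h. NIR1 (Zm00001eb193660), a nitrite reductase gene on chromosome 4 from 183572704 to 183576240, was at 52.5, 60.8 and 54.3 TPM at 0 h and at 14.1, 23.6 and 9.35 TPM at 24 h. The other nitrite reductase gene, NIR2, was at 71.2, 101 and 89.4 TPM at 0 h and at 32, 55.2 and 20.6 TPM at 24 h. In both genes every 24 h library was below every 0 h library, with replicate 2 nearest to 0 h. The log2FC values were -1.86 (SE 0.442, limma adjusted p-value 0.00898) for NIR1 and -1.35 (SE 0.37, limma adjusted p-value 0.0187) for NIR2. The NIR2 call did not pass with no filter on low genes, or without 0 h replicate 2 or 3 or 24 h replicate 1 or 3, where its adjusted p-value was up to 0.08.

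UPM1, a uroporphyrinogen methyltransferase gene that serves the siroheme cofactor of nitrite reductase, was at 25.1, 24.2 and 23.3 TPM at 0 h and at 10.8, 13.9 and 10.6 TPM at 24 h. Its log2FC of -0.99 (SE 0.277, limma adjusted p-value 0.0212) missed the fold limit alone. The related UPM2 was at 34.8, 67.9 and 20.4 TPM at 24 h, on both sides of its 0 h range of 37.7 to 52.1 TPM. RFNR, which supplies electrons to nitrite reductase in roots, was likewise at 320, 558 and 177 TPM at 24 h around 361 to 431 TPM at 0 h. In UPM2 and RFNR the highest library was 24 h replicate 2 and the lowest was 24 h replicate 3, and neither passed the test.

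Nitrate reductase genes, the first enzymes of the chain, gave no call among the network members. NR1 was at 19.6, 16.3 and 19.5 TPM at 0 h and at 16.7, 29.9 and 9.69 TPM at 24 h (log2FC -0.11, limma adjusted p-value 0.834). NR2 was at 28.6, 33.6 and 28 TPM and then 19.9, 28.2 and 8.61 TPM (log2FC -0.78, limma adjusted p-value 0.134). In both genes 24 h replicate 2 was the highest of its group and replicate 3 the lowest. Without 24 h replicate 2 the log2FC values of NR1 and NR2 were -0.5 and -1.13 (limma adjusted p-values 0.224 and 0.0551). NR3, at 1.27, 2.1 and 0.98 TPM at 0 h and at 0.317, 0.392 and 0.241 TPM at 24 h, was not a member. Its groups did not overlap, and in the fit over all root libraries it passed on the p-value and not on the fold (log2FC -0.87, limma adjusted p-value 0.0133). A gene outside the network with the description of a nitrate reductase, Zm00001eb193390, was at 2.03, 2.93 and 1.01 TPM at 0 h and was listed at 0, 0.195 and 0.0611 TPM at 24 h. It was called lower (log2FC -1.41, SE 0.209, limma adjusted p-value 0.000599) and was picked out after its values were seen.

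Of the 3 glutamine synthetase genes, which fix ammonium, GS1-5 alone was called. GS1-5 was at 50.6, 86.3 and 74.4 TPM at 0 h and at 19.5, 26.2 and 14.6 TPM at 24 h, a called fall (log2FC -1.76, SE 0.335, limma adjusted p-value 0.00243). GS1-3 was at 264, 300 and 303 TPM at 0 h and at 512, 597 and 549 TPM at 24 h. Each of its 24 h libraries was above each 0 h library, and the log2FC of 0.93 (SE 0.259, limma adjusted p-value 0.0198) missed the fold limit. GS1-1, the most abundant of the 3 with 547 to 734 TPM at 0 h, was at 523 to 895 TPM at 24 h and did not pass (log2FC -0.05, limma adjusted p-value 0.898).

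Glutamate synthase genes completed the chain. GOGAT2 was at 52.8, 71 and 73.7 TPM at 0 h and at 18.9, 31 and 24.1 TPM at 24 h (log2FC -1.39, SE 0.257, limma adjusted p-value 0.00204). GOGAT1 was at 71.4, 92 and 84 TPM and then 49.4, 58.8 and 49.8 TPM, and passed on the p-value and not on the fold (log2FC -0.63, limma adjusted p-value 0.0149). GOGAT3 had the same fitted change and missed both limits (adjusted p-value 0.0663). All 3 genes had groups that did not overlap, with the 24 h libraries lower.

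Of the 16 listed nitrate assimilation genes, 13 were members. Of these, 4 were called lower and 0 higher, against 2.74% and 1.24% of all members, while 7 passed on the adjusted p-value alone, against 21.2%. The fitted change was below 0 for 12 of the 13, and the median log2FC was -0.63. The members that lay lower with groups that did not overlap numbered 7, against 25.6% of all members. The 3 that were not members were NR3 and a pair of genes sharing the symbol GOGAT4, which were under 1 TPM in each of the 6 libraries.

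The same genes were set against the earlier deprivation time of 3 h in the same fit. These groups differ in the time of day at harvest as well as in the length of deprivation, and of the members 1.84% were called. NR2 was higher at 24 h than at 3 h, where its mean was 2.62 TPM (log2FC 2.33, limma adjusted p-value 0.00159), and so were UPM2 (1.21, adjusted p-value 0.0346) and RFNR (1.35, adjusted p-value 0.0256). NAR2.1 was also higher at 24 h than at 3 h (1.89, adjusted p-value 0.0142), from a mean of 5.49 TPM at 3 h. NIR1 had means of 11.3 TPM at 3 h and 15.7 TPM at 24 h and did not pass (log2FC 0.37, limma adjusted p-value 0.628).

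Another set of genes was lower at 24 h than at 3 h. GOGAT2 had a mean of 72.2 TPM at 3 h and 24.7 TPM at 24 h (log2FC -1.5, limma adjusted p-value 0.00293). AMT1.3 had 28.5 TPM at 3 h and 12.1 TPM at 24 h (-1.25, adjusted p-value 0.0111), and ASN3 had 34.9 and 6.75 TPM (-2.28, adjusted p-value 0.00749). NRT2.1 and NRT2.2 had means of 8.02 and 6.82 TPM at 3 h. Their log2FC values from 3 h to 24 h, 3.40 and 2.87, did not pass (limma adjusted p-values 0.0943 and 0.114). The groups did not overlap, with NRT2.1 at 7.31 to 9.37 TPM at 3 h and 47.3 to 228 TPM at 24 h. NRT2.2 was at 5.6 to 8.8 TPM and then 21.9 to 184 TPM. The spread in this fit includes the 48 h libraries, where replicate 2 stood apart in both genes.

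**Figure D3:**
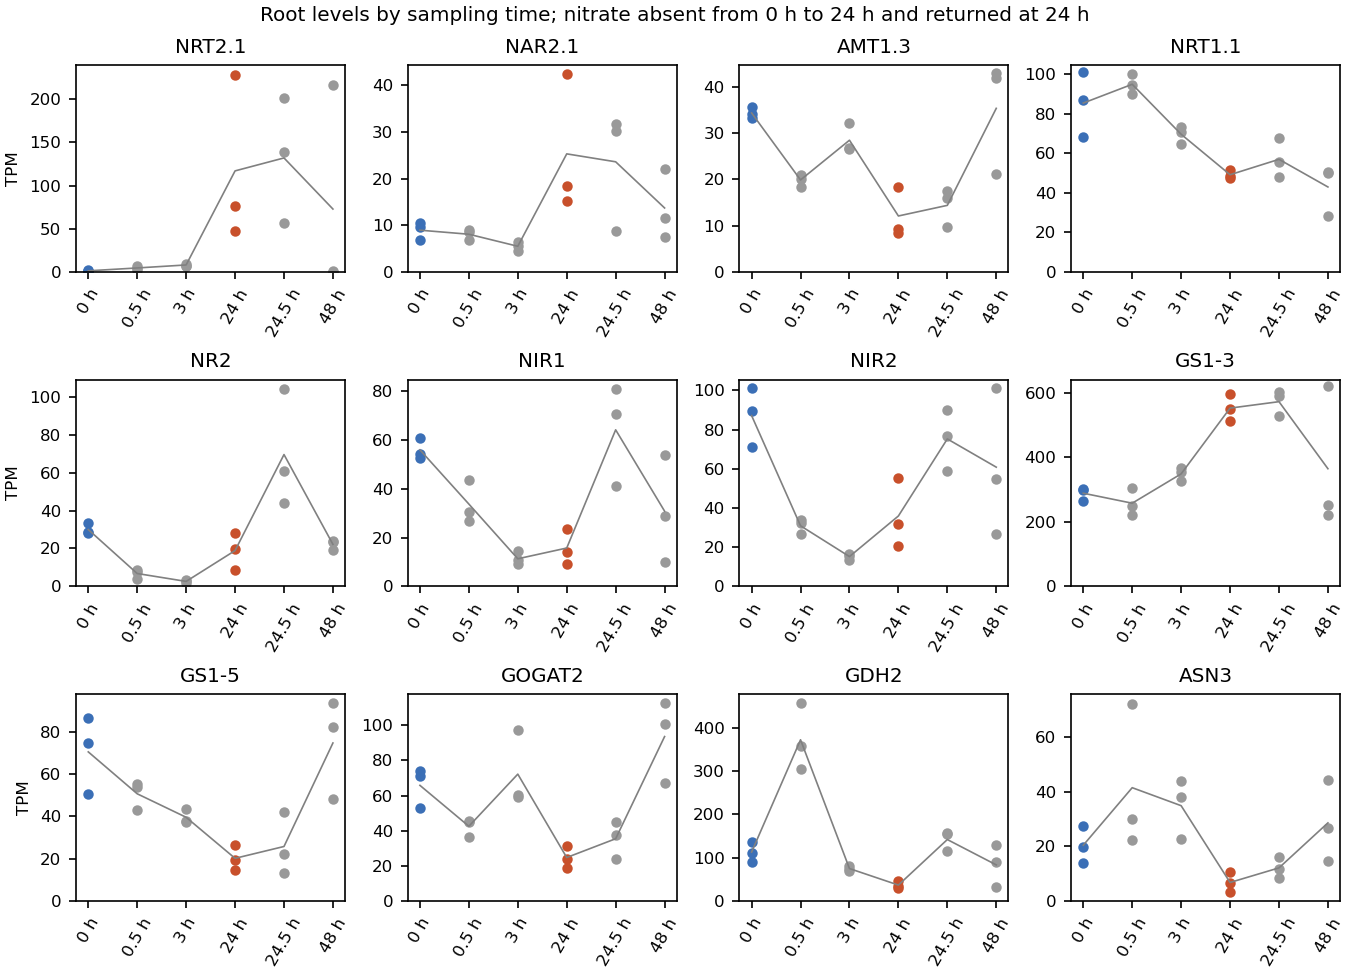
TPM in each root library at the 6 sampling times (evenly spaced, not to scale) for 12 genes of nitrogen uptake and metabolism, each panel with its own linear axis from 0, with the line through the group means. Blue points are 0 h, orange points 24 h and grey points the other times. NR2 was lowest at 3 h (mean 2.62 TPM), while GOGAT2 and ASN3 were lowest at 24 h (means 24.7 and 6.75 TPM).

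Of the 8 amino acid genes of the network, 2 were called lower and 0 higher, against 2.74% and 1.24% of all members. GDH2, a glutamate dehydrogenase gene, was at 136, 90.2 and 111 TPM at 0 h and at 28.8, 47.1 and 33.8 TPM at 24 h (log2FC -1.61, SE 0.358, limma adjusted p-value 0.00626). ASN3, an asparagine synthetase gene, was at 19.7, 14 and 27.5 TPM and then 6.58, 10.6 and 3.12 TPM (log2FC -1.54, SE 0.469, limma adjusted p-value 0.0313). The ASN3 groups did not overlap, but the call was lost without 0 h replicate 1 or 3, without 24 h replicate 1 or 3, with no filter and with a pseudocount of 5 TPM. The alanine aminotransferase gene AlaAT3 was at 90.8, 96.4 and 101 TPM at 0 h and at 57.1, 56.4 and 60.2 TPM at 24 h, and passed on the p-value and not on the fold (log2FC -0.72, SE 0.0866, limma adjusted p-value 0.00018). Its paralogue AlaAT1 did not pass, nor did ASN1 or GDH1, with log2FC values of -0.23, 0.11 and -0.19.

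A further asparagine synthetase gene outside the network, described as asparagine synthetase 4 (Zm00001eb396990), was at 105, 156 and 132 TPM at 0 h and at 25.5, 47.4 and 22.4 TPM at 24 h (log2FC -2.07, SE 0.43, limma adjusted p-value 0.00428). A probable amino acid permease 7 (Zm00001eb264210) was at 295, 320 and 271 TPM and then 105, 114 and 84.1 TPM (log2FC -1.55, SE 0.236, limma adjusted p-value 0.000699). Both were picked out after their values were seen, and in both every 24 h library was lower than every 0 h library.

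The smaller network lists held no calls. In carbon metabolism, 4 of 5 genes were members, with a median log2FC of -0.59. G6PD1, the entry enzyme of the oxidative pentose phosphate pathway, was at 200, 204 and 211 TPM at 0 h and at 90.5, 130 and 72 TPM at 24 h. Its groups did not overlap, and its log2FC of -1.11 (SE 0.411) missed the limit with a limma adjusted p-value of 0.069. None of the 4 ethylene biosynthesis, 4 auxin or cytokinin, 7 N linked, 6 stress response and 4 enzyme or ubiquitination members was called. The medians of these lists ran from -0.40 to 0.00. Among them the auxin receptor gene TIR1 had a log2FC of 0.21 (limma adjusted p-value 0.231), while AUF4 passed on the p-value alone (0.75, adjusted p-value 0.0251).

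**Figure D4:**
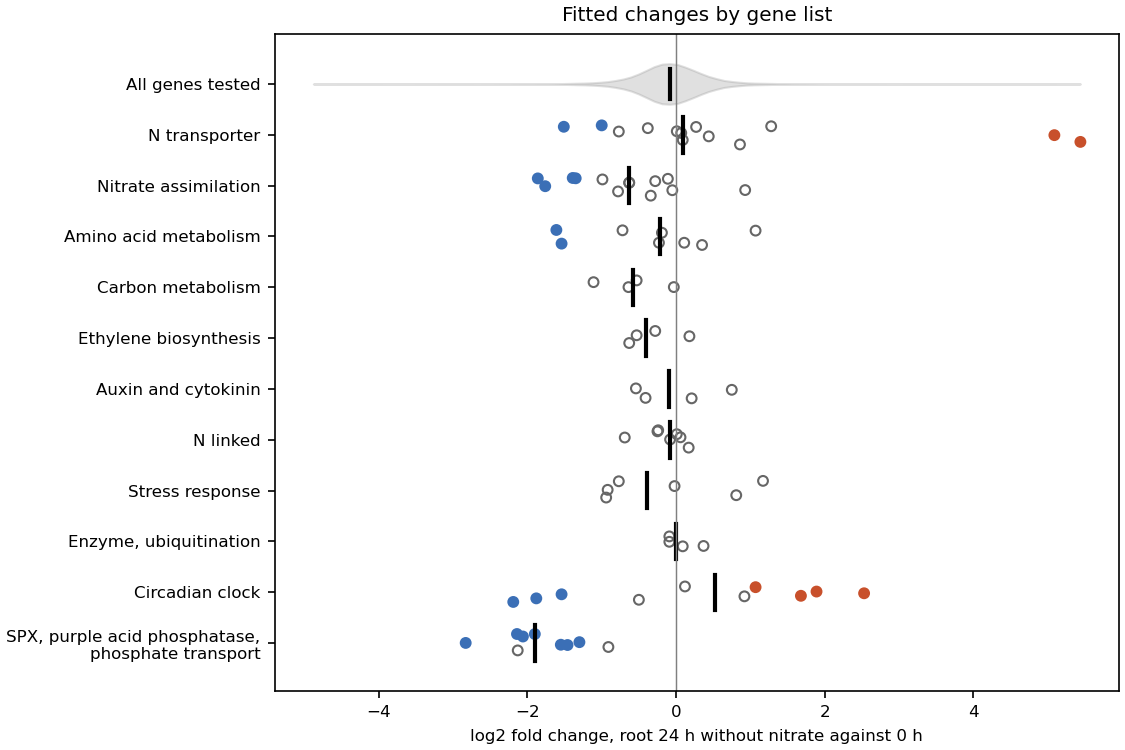
Log2FC of each member (points, open where not called) in the gene lists, with a black bar at each median and the distribution over all 24367 members at the top. The nitrate assimilation median was -0.63 and the N transporter median 0.09. The lowest list, of genes described as SPX proteins, purple acid phosphatases or phosphate carriers, was put together after the values were seen.

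Transcription factors made up most of the network, and 257 of its 300 factor genes were members. Of these, 3 were called higher and 14 lower, against 1.24% and 2.74% of all members, and the median log2FC was -0.09. Median-of-ratios scaling gave 5 higher and 9 lower, and quantile normalization 3 higher and 9 lower. Without 24 h replicate 2 there were 1 higher and 8 lower. The factors called lower but outside the 8 largest falls (NAC49, bZIP40, bZIP12, DOF41, ARF16 and EREB2) are named below to complete the count. Among families, AP2-EREBP had 39 members with 1 called higher and 4 lower, bZIP had 30 with 1 higher and 2 lower, and NAC had 28 with 0 higher and 3 lower. WRKY factors had 15 members and homeobox factors (HB) 8, with 0 called in either family.

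NLP factors carry the nitrate signal in Arabidopsis, and all 5 NLP genes of the network were members. NLP4 was at 43.5, 57.7 and 54.7 TPM at 0 h and at 31.8, 28 and 34.7 TPM at 24 h, and passed on the p-value and not on the fold (log2FC -0.70, SE 0.177, limma adjusted p-value 0.0126). NLP13 was at 8.88, 14.9 and 11.7 TPM and then 17.6, 18.2 and 21.9 TPM, with groups that did not overlap, and did not pass (log2FC 0.68, limma adjusted p-value 0.278). NLP6, NLP7 and NLP17 had log2FC values of 0.03, 0.15 and 0.02 and overlapping groups.

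The largest fall of a network factor was that of EREB115, an AP2-EREBP gene, at 48.9, 32.6 and 20.3 TPM at 0 h and at 7.14, 3.87 and 6.7 TPM at 24 h (log2FC -2.29, SE 0.507, limma adjusted p-value 0.00607). EREB97 of the same family was at 13.2, 10.4 and 7.03 TPM and then 3.03, 1.81 and 3.04 TPM (log2FC -1.61, limma adjusted p-value 0.0023). EREB36 rested more on a single library, with 6.62 TPM in 0 h replicate 1 and 1.14 and 1.24 TPM in the others, and its call (log2FC -1.46) was lost without that library, where the log2FC was -0.86, and without 24 h replicate 2. In all 3 genes the groups did not overlap.

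NAC factors described as NAC domain-containing protein 2 gave steadier falls. NAC125 was at 60.7, 74.6 and 71.5 TPM at 0 h and at 24.6, 28.6 and 24.5 TPM at 24 h (log2FC -1.38, SE 0.186, limma adjusted p-value 0.000347). NAC5 was at 30.6, 26 and 30.5 TPM and then 10.9, 12.2 and 9.42 TPM (log2FC -1.35, SE 0.169, limma adjusted p-value 0.000212). Another gene with the same description, NAC49, fell with a log2FC of -1.04 (limma adjusted p-value 0.00121). Replicates of NAC125 and NAC5 differed by far less than the groups did.

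Among the other called factors, MYB40 was at 9.04, 6.06 and 4.02 TPM and then 1.89, 0.525 and 1.79 TPM, and bHLH20 at 11.5, 4.88 and 3.31 TPM and then 1.72, 1.78 and 1.51 TPM. Their log2FC values were -1.62 and -1.35 (limma adjusted p-values 0.0119 and 0.0122), and the calls were lost without 24 h replicate 2 for MYB40 and without 0 h replicate 1 for bHLH20. The abundant bZIP genes bZIP40 and bZIP12 fell with log2FC values of -1.25 and -1.01 (limma adjusted p-values 0.00955 and 0.00164). DOF41, ARF16 and EREB2 made up the remaining falls, with log2FC values of -1.15, -1.03 and -1.0. Under each of the other scalings the lower calls numbered 1 in the bZIP family, 2 in NAC and 0 in ARF.

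The network factors that rose were bZIP111, EREB122 and Orphan90, the last of which is a clock gene taken up below. bZIP111 was at 15.6, 31.3 and 34.2 TPM at 0 h and at 58.5, 55.8 and 63.5 TPM at 24 h (log2FC 1.18, SE 0.275, limma adjusted p-value 0.00814). EREB122 was at 1.63, 3.22 and 2.18 TPM and then 5.51, 7.12 and 5.19 TPM (log2FC 1.07, SE 0.222, limma adjusted p-value 0.00413). Each of the 3 calls was lost without 0 h replicate 1, which was the lowest 0 h library in each, and those of EREB122 and Orphan90 also without 24 h replicate 2.

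Sampling times 24 h apart nominally share their hour of day, so genes described as components of the circadian clock were read as a check of that. The clock is a loop in which morning genes such as LHY (in Arabidopsis) repress evening genes such as APRR1, also called TOC1, and the reverse. All 10 such genes were members, and 4 were called higher and 3 lower, against 1.24% and 2.74% of all members. These descriptions come from tables that the study selected on other time points of the same libraries.

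The LHY genes were lower at 24 h. MYBR79, which carries the description LHY, was at 38.6, 32 and 31.2 TPM at 0 h and at 6.87, 7.41 and 5.64 TPM at 24 h (log2FC -2.19, SE 0.253, limma adjusted p-value 0.000139). Zm00001eb415770 was at 43.2, 43.7 and 40.3 TPM and then 11.1, 9.85 and 11.4 TPM (log2FC -1.88, SE 0.236, limma adjusted p-value 0.000212). Zm00001eb415760 was at 64.5, 47.6 and 59.4 TPM and then 20.4, 19.4 and 16.9 TPM (log2FC -1.54, SE 0.221, limma adjusted p-value 0.000506). Replicates lay close together within each group in all 3 genes. The last pair have neighbouring identifiers and the same description, so reads may be shared between them.

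Evening-type genes were higher at 24 h. The APRR1 gene Zm00001eb247330 was at 4.86, 9.81 and 9.36 TPM at 0 h and at 23.4, 29.2 and 28.5 TPM at 24 h (log2FC 1.68, SE 0.178, limma adjusted p-value 0.000104). The other APRR1 gene, Orphan90, was at 3.58, 5.53 and 5.66 TPM and then 9.29, 13.2 and 11.7 TPM (log2FC 1.07, SE 0.18, limma adjusted p-value 0.00121). Adagio 3 is a blue-light receptor that acts in the afternoon in Arabidopsis, where it is called FKF1. Its gene Zm00001eb201580 was at 0.572, 0.786 and 1.32 TPM and then 8.29, 10 and 11.2 TPM (log2FC 2.53, SE 0.184, limma adjusted p-value 1.04e-05).

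The second Adagio 3 gene, Zm00001eb113780, was at 3.32, 4.83 and 6.22 TPM and then 20.1, 21.2 and 18.7 TPM (log2FC 1.89, SE 0.222, limma adjusted p-value 0.000157). APRR5 (Zm00001eb103490) was at 10.2, 13.9 and 17 TPM and then 24.9, 28.4 and 26 TPM, and passed on the p-value and not on the fold (log2FC 0.92, limma adjusted p-value 0.00349). APRR9 and REVEILLE 7 overlapped between the groups, with log2FC values of 0.12 and -0.50. A gene described as LUX, a partner in the evening complex, was picked out after its values were seen. It is Zm00001eb362240, at 0.24, 0.486 and 0.925 TPM at 0 h and at 2.9, 2.29 and 4.48 TPM at 24 h (log2FC 1.44, limma adjusted p-value 0.000979).

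Over the 6 sampling times the LHY genes were highest at 0 h and lower at each later time. From the first sampling time to the last, in order of the time course, the mean of Zm00001eb415760 was 57.1, 13.3, 6.38, 18.9, 14.9 and 22.8 TPM. The labels and the methods define the last time, 48 h, differently. In the same order, the mean of the APRR1 gene Zm00001eb247330 was 8.01, 38.8, 71, 27, 53.7 and 26.6 TPM. On both genes the 24 h level lay between those of 0 h and 0.5 h. Of the 10 clock genes, 4 called higher and 3 called lower under the main fit stayed at 3 to 5 higher and 3 lower when a library was left out or the scaling was changed.

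In leaf, the clock genes other than REVEILLE 7 had fitted changes in the same direction as in root. MYBR79 was at 343, 336 and 334 TPM in leaf at 0 h and at 147, 139 and 196 TPM in leaf at 24 h. Zm00001eb113780 was at 3.18, 2.13 and 4.95 TPM in leaf and then 21.3, 25.3 and 19.2 TPM. A difference of change between root and leaf was called for 1 of the 10, APRR9, which is given in the closing section. A change of clock phase and the lack of nitrate cannot be told apart in this design, so every fold change from 0 h to 24 h includes any effect of the hour that the clock genes read.

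**Figure D5:**
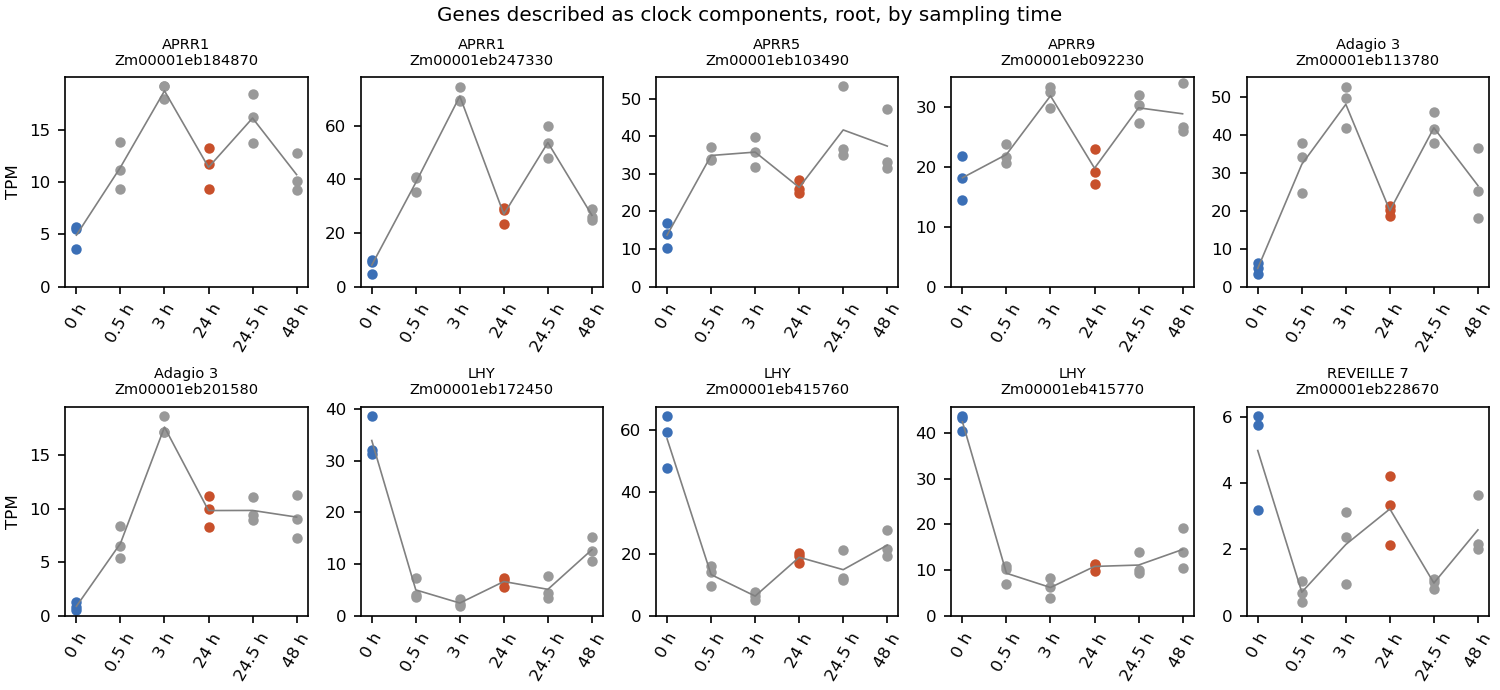
TPM in each root library at the 6 sampling times (evenly spaced, not to scale) for the 10 genes described as clock components, each panel with its own linear axis from 0, with blue points for 0 h, orange for 24 h, grey for the other times and a line through the means. The 3 LHY genes are highest at 0 h, and at 24 h they lie below each 0 h library, while the APRR1 and Adagio 3 genes lie above them.

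Beyond the network, gene descriptions were at hand for 1283 members, which the study had listed as responsive at other time points or in leaf. Of these, 40 were called higher and 86 lower, or 9.82% against 3.98% of all members, a share that reflects in part how the descriptions came about. The named genes below are the largest changes with a description, apart from those of the clock.

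The rises included genes for transport proteins. The gene for zinc transporter 7 (Zm00001eb052440) was at 1.16, 0.79 and 1.57 TPM at 0 h and at 10.7, 21.3 and 7.34 TPM at 24 h (log2FC 2.59, SE 0.584, limma adjusted p-value 0.00665). The gene for aquaporin TIP4-1 (Zm00001eb284350), a channel of the vacuole membrane, was at 1.74, 1.93 and 5.32 TPM and then 14.5, 20.3 and 17.6 TPM (log2FC 2.30, SE 0.261, limma adjusted p-value 0.000134). It was lower at 24 h than at 3 h, where its mean was 53.9 TPM (log2FC -1.56, limma adjusted p-value 0.00257).

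The gene with the description SODIUM POTASSIUM ROOT DEFECTIVE 2 (Zm00001eb357630) reached the highest level among these rises, at 27.5, 22.1 and 30.3 TPM at 0 h and at 147, 119 and 185 TPM at 24 h (log2FC 2.44, SE 0.643, limma adjusted p-value 0.0152). Its groups were far apart, while its call was lost without 0 h replicate 2 (adjusted p-value 0.0572). A cytochrome b561 and DOMON domain gene (Zm00001eb102590) was at 13.7, 11.6 and 13.4 TPM and then 63.9, 36.3 and 89.8 TPM (log2FC 2.12, SE 0.623, limma adjusted p-value 0.0263). That call was lost in most fits that left out a library.

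The other described rises included enzymes. The thiamine thiazole synthase gene (Zm00001eb356910), which makes a precursor of vitamin B1, was at 0.902, 1.96 and 1.14 TPM and then 12, 18.8 and 9.03 TPM (log2FC 2.58, SE 0.366, limma adjusted p-value 0.000451). A mitochondrial cysteine synthase gene (Zm00001eb376890) was at 7.99, 7.15 and 8.06 TPM and then 22.2, 21 and 23.1 TPM (log2FC 1.40, SE 0.323, limma adjusted p-value 0.00752). A lipase gene described as LTL1 (Zm00001eb280670) had a log2FC of 1.63 (adjusted p-value 0.0323) and lost its call in each fit that left out a library. A ubiquitin ligase gene described as ATL41 (Zm00001eb282260) was at 12.1, 10.4 and 11.5 TPM and then 33.3, 35.3 and 26.4 TPM (log2FC 1.40, SE 0.315, limma adjusted p-value 0.00667).

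The largest falls with a description began with a gene of phosphate signalling. SPX proteins sense phosphate status through inositol pyrophosphates, and in Arabidopsis and rice most SPX genes, purple acid phosphatase genes and the glycerol 3-phosphate permease are induced when phosphate is short. The SPX domain-containing protein 3 gene Zm00001eb048730 was at 16.6, 22.3 and 13.1 TPM at 0 h and at 2.28, 0 and 3.96 TPM at 24 h, with replicate 2 listed at 0 (log2FC -2.83, SE 0.617, limma adjusted p-value 0.0056). Purple acid phosphatase 15 (Zm00001eb064450) was at 72.9, 117 and 102 TPM and then 22.8, 13.3 and 29.7 TPM (log2FC -2.14, SE 0.401, limma adjusted p-value 0.00224).

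After these values were seen, all described genes of SPX proteins, purple acid phosphatases, phosphate transporters and the glycerol 3-phosphate permease were collected. Of 10 such genes 9 were members, 7 of them called lower and 0 higher, against 2.74% and 1.24% of all members, with a median log2FC of -1.90. In each of the 9 the 24 h libraries lay below all 0 h libraries, as in 25.6% of all members. The set was chosen for these falls, so nothing is read from either count. The most abundant, the SPX gene Zm00001eb162710, was at 378, 547 and 430 TPM at 0 h and at 193, 35.8 and 173 TPM at 24 h (log2FC -2.06, SE 0.602, limma adjusted p-value 0.0257). The glycerol 3-phosphate permease gene (Zm00001eb415960) was at 76.5, 80.2 and 57.3 TPM and then 31.7, 21.4 and 32.6 TPM (log2FC -1.30, SE 0.201, limma adjusted p-value 0.000767).

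Replicate 2 of 24 h was the lowest library for each of the 9 members, and without it 3 genes of the set were called. Without 0 h replicate 2 there were also 3, and the call of Zm00001eb162710 was lost without either and without 0 h replicate 3. A pair of purple acid phosphatase 17 genes with neighbouring identifiers, Zm00001eb010130 and Zm00001eb010140, may share reads. They had log2FC values of -1.90 (limma adjusted p-value 0.0357) and -0.91 (adjusted p-value 0.0011), the second of which missed the fold limit. The call of Zm00001eb010130 was lost without any of the 0 h replicates or without 24 h replicate 2, where its log2FC was -1.11 (adjusted p-value 0.177), and also with no filter, with the 6 libraries alone and with a robust prior. Against 3 h, the SPX gene Zm00001eb162710 was higher at 24 h (2.88, limma adjusted p-value 0.00807), from a mean of 13.9 TPM at 3 h, and so was the permease gene Zm00001eb415960 (1.58, adjusted p-value 0.000578), from 8.74 TPM.

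Channel genes were also among the largest falls. SLAH1 (Zm00001eb118730), an anion channel gene related to the channels that load anions into the root xylem in Arabidopsis, was at 41, 36 and 37.8 TPM at 0 h and at 10.4, 4.14 and 8.38 TPM at 24 h (log2FC -2.26, SE 0.341, limma adjusted p-value 0.000663). Cyclic nucleotide-gated ion channel 4 (Zm00001eb292010) was at 34.3, 46.6 and 42.2 TPM and then 9.62, 8.98 and 6.64 TPM (log2FC -2.16, SE 0.358, limma adjusted p-value 0.0011). Both kept a called fall in each fit that left out a library.

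Growth-related and electron-transfer genes completed the list. EXORDIUM (Zm00001eb255390), a cell wall protein gene tied to growth in Arabidopsis, was at 20.8, 18.3 and 17.3 TPM and then 2.72, 2.47 and 3.33 TPM (log2FC -2.37, SE 0.24, limma adjusted p-value 9.79e-05). Cytochrome P450 78A5 (Zm00001eb020100), of a family that promotes organ growth, was at 23.5, 16.8 and 22.1 TPM and then 3.98, 3.97 and 2.03 TPM (log2FC -2.36, limma adjusted p-value 0.000941). Probable ferredoxin-4 (Zm00001eb348290), an electron carrier gene, was at 21, 24.2 and 26 TPM and then 4.18, 4.04 and 2.27 TPM (log2FC -2.48, limma adjusted p-value 0.00634). Each of the 3 genes fell to well under its lowest 0 h library.

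The others were a Myb factor described as EFM (Zm00001eb406610, log2FC -2.38), a glycosyltransferase family 64 gene (Zm00001eb227330, -2.20) and a small heat shock protein gene (Zm00001eb124960, -2.20). The heat shock gene was at 28.7, 8.88 and 12.2 TPM at 0 h and at 3.27, 2.01 and 2.09 TPM at 24 h, so its 0 h libraries varied most. The falls that were picked out after their values were seen included LBD39 (Zm00001eb051620), whose Arabidopsis counterpart is nitrate-induced and represses nitrate uptake genes, at 51.3, 60.8 and 57.8 TPM and then 23.9, 27.9 and 20 TPM (log2FC -1.22, SE 0.341, limma adjusted p-value 0.0208). They also included SHORT-ROOT (Zm00001eb326020), a root patterning factor gene, at 17.8, 17.4 and 15.8 TPM and then 6.04, 10 and 6.9 TPM (log2FC -1.08, SE 0.24, limma adjusted p-value 0.00616). The LBD39 call was lost without 0 h replicate 2 or 3 and without 24 h replicate 1 or 3, and the SHORT-ROOT call without 24 h replicate 1.

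In the remaining description lists the counts of calls stand against 3.98% of all members. Germin-like proteins had 14 members with 0 called and a median of 0.22, and the NRT1/PTR descriptions had 6 with 0 called and a median of -0.14. Heat shock or DnaJ descriptions had 20 members with 2 called higher and 2 lower. Sugar transport had 6 members with 2 called lower, SWEET2 (Zm00001eb155660, log2FC -1.28) and SWEET9 (Zm00001eb408920, -1.04). The lower calls in that list numbered 1 under each of the other scalings and 0 with a pseudocount of 5 TPM. In the jasmonate list 1 of 5 members was called lower, the lipoxygenase gene Zm00001eb144960 (-1.32). These lists were selected on other time points of the same libraries.

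Of called genes without a description, the 2 largest rises and 2 largest falls within the naming limits are given by identifier. Zm00001eb250350 was at 1.5, 1.11 and 2.01 TPM at 0 h and at 19.7, 33.3 and 15.1 TPM at 24 h (log2FC 3.16, limma adjusted p-value 0.00161). Zm00001eb278150 was at 1.3, 4.1 and 3.68 TPM and then 30.1, 28.8 and 35.9 TPM (log2FC 3.09, limma adjusted p-value 0.000139). Both were scarcely expressed at 0 h and clearly present in every 24 h library.

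The fall of Zm00001eb137370 was deeper than any other called fall. It was at 79.5, 138 and 114 TPM at 0 h and at 2.33, 0.994 and 6.69 TPM at 24 h (log2FC -4.88, SE 0.59, limma adjusted p-value 0.000182). Zm00001eb016270 was at 23.3, 52.9 and 20.8 TPM and then 0.395, 0 and 0.843 TPM (log2FC -4.48, SE 0.772, limma adjusted p-value 0.00138). Zm00001eb137370 was already lower at 3 h, with a mean of 13.5 TPM, and was lower again at 24 h (log2FC from 3 h -1.94, limma adjusted p-value 0.043).

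The change in root was compared with the change in leaf over the same 24 h. The difference was tested for 21438 genes with at least 1 TPM in at least 3 root and 3 leaf libraries of any time. It was called for 209, or 0.975%, with 66 above 0 in root minus leaf (0.308%) and 143 below (0.667%). NRT2.1, NRT2.2 and NAR2.1 were not expressed highly enough in leaf to be tested. AMT1.3 had a log2FC of -1.51 in root and -1.39 in leaf, and the difference of -0.12 did not pass (limma adjusted p-value 0.879). NIR1 was at -1.86 in root and -0.99 in leaf (difference -0.87, adjusted p-value 0.341). For NIR2 the difference of -1.68 between -1.35 in root and 0.33 in leaf did not pass either (limma adjusted p-value 0.112). The named genes with a called difference are given in the closing section.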

How the data were processed

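RNA-seq of B73 root and leaf gave 36 libraries, 3 for each of 6 times in 2 tissues. The deposited values are TPM, which the authors computed per gene after STAR alignment to B73 version 5 and StringTie, per the methods of the study. The labels also name Trimmomatic, and the labels and methods differ on nutrient solution, library kit, sequencer, trimming, pool size, plant age and the definition of the 48 h sample. Read depth per library cannot be had from TPM and is unknown, and a gene at 0 is only listed at 0.

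Values were taken as log2(TPM + 1), and fold changes (log2FC) are given on it, so that those of low genes are understated. The 26245 genes with at least 1 TPM in at least 3 of 18 root libraries entered one linear model in limma 3.58.1 (R 4.3.3), with a coefficient per time, empirical Bayes moderation with a trend, two-sided tests and Benjamini-Hochberg adjustment over all of them. The root and leaf changes were compared by an interaction over all 36 libraries. The code was tested on simulated data. No set test was run. Replicates are pools of plants. The p-values for root measure the spread between pools of the same time, estimated over all 18 root libraries. Times outside the comparison thus also shape it. In some named genes 48 h replicate 2 stood apart, as in NRT2.1 (0.285, 217 and 1.52 TPM) and NRT2.2 (0.53, 76.4 and 0.566 TPM). It also did so in G6PD1 (298, 63.3 and 311 TPM) and NLP13 (7.51, 45.6 and 10.5 TPM). Leaving out that library was not tested. With the 6 libraries alone 1064 genes were called.

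Network lists, symbols and descriptions came from the tables of the study, and 284 of 371 network genes were matched to RefSeq coordinates on the Zm-B73-REFERENCE-NAM-5.0 assembly, through older gene identifiers. The members and the lists were chosen with earlier results of these data known. Named genes were all N transporter and nitrate assimilation genes, other network genes where called, the 8 largest rises and falls of factors, all NLP and clock genes, and, for genes outside the network with groups that did not overlap and a higher-group mean of 10 TPM or more, the 10 largest rises and falls with a description and 2 of each without. A description that gave a locus identifier alone was not counted as one. Alternatives were pseudocounts of 0.1 and 5, other filters (none, members only, a mean of 5 TPM), median-of-ratios scaling, quantile normalization, a replicate block, the 6 libraries alone, a robust prior, the adjusted p-value with no fold limit, a limma test of log2FC beyond 1, and leaving out each library.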

Additional observations from a re-analysis of the deposited data

Results flagged for a closer look

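The named genes below were picked out because the change from 0 h to 24 h differed between root and leaf by a limma interaction test, with an adjusted p-value under 0.05 and a difference above 1 on the log2 scale. There were 9 among the 102 named genes tested in both tissues, and 0.975% of all genes tested passed. Many of the named genes were chosen for a large change in root, which is a term of the difference, so the shares cannot be compared. The differences of GOGAT2, GDH2, NAC5, Zm00001eb124960 and APRR9 no longer passed under median-of-ratios scaling, those of NAC5, Zm00001eb124960 and APRR9 also not with a pseudocount of 5 TPM, and that of GDH2 also not with a replicate block. Groups of 3 libraries are too small to be screened for single outlying samples.

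Of the network genes, GOGAT2 fell in root and had a log2 fold change of -0.04 in leaf, a difference of -1.36 (limma adjusted p-value 0.0263). GDH2 fell in root and was at 0.11 in leaf, a difference of -1.71 (adjusted p-value 0.0476). PEPC6, a phosphoenolpyruvate carboxylase gene, was at -0.03 in root and -1.18 in leaf, a difference of 1.16 (limma adjusted p-value 0.00933). NAC5 fell in root and was at -0.25 in leaf, a difference of -1.10 (adjusted p-value 0.0221).

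Among the other genes, the small heat shock protein gene Zm00001eb124960 had a difference of -1.94 (limma adjusted p-value 0.037) and the glycosyltransferase gene Zm00001eb227330 one of -2.65 (adjusted p-value 0.0111). SODIUM POTASSIUM ROOT DEFECTIVE 2 (Zm00001eb357630) rose in root and was at -0.37 in leaf, a difference of 2.81 (limma adjusted p-value 0.0358). Its leaf libraries were listed at 1.15, 0 and 0 TPM at 0 h and at 0 TPM throughout at 24 h. The leaf term thus rests on values near the floor. ATL41 (Zm00001eb282260) rose in root and was at -0.77 in leaf, a difference of 2.17 (adjusted p-value 0.0151). The clock gene APRR9 (Zm00001eb092230) was at 0.12 in root and 1.16 in leaf, a difference of -1.04 (limma adjusted p-value 0.0345).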

How the results depend on the processing

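Calls of single named genes were not followed under the limma test of log2FC beyond 1. Of 60 named genes that were followed singly and called in root at 24 h, 38 kept the call under every other alternative that gave a value. Another 22 lost it under at least 1 of these, and 0 turned sign. The 60 leave out NAC49, bZIP40, bZIP12, DOF41, ARF16, EREB2, SWEET2, SWEET9 and the lipoxygenase gene Zm00001eb144960. The calls of these genes were not followed singly. The 969 called genes numbered 392 with a pseudocount of 5 TPM (114 higher, 278 lower), 5176 by the adjusted p-value alone (1887 higher, 3289 lower) and 4 in a limma test of log2FC beyond 1 (1 higher, 3 lower). Leaving out each library in turn gave 686 to 989 called genes, 181 to 300 of them higher and 505 to 709 lower, and 3 to 5 in each of the nitrate assimilation and N transporter lists. The genes that differed between root and leaf, 209, numbered 120 under median-of-ratios scaling and 132 with a pseudocount of 5 TPM. Under median-of-ratios scaling the differences of GOGAT2, GDH2, NAC5, Zm00001eb124960 and APRR9 no longer passed. The cause of these changes was not tested.

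Replicate numbers showed no sign of pairing: deviations of same-numbered 0 h and 24 h root libraries had correlations of 0.0584, -0.0858 and -0.0345. These values cannot show whether replicates were grown or handled in matched sets. With the replicate block 970 genes were called, and the difference between root and leaf in GDH2 missed the limit (adjusted p-value 0.0545). TPM keeps no depth, so the precision of low values is unknown.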
